A study of Homo sapiens with 15 samples.

Results

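The unfolded protein response and ATF4 pathway was described here through 41 genes, chosen by name from 57736 genes in a table of counts from cultured fibroblasts. All 41 were found by Ensembl identifier and symbol, and all 41 passed the filter on low counts, which left 15994 genes. They were sorted by role into 17 chaperones and folding enzymes, 4 stress sensors or their factors, 4 genes of protein degradation, 8 factors and effectors of the ATF4 arm, and 8 enzymes of amino acid and one-carbon metabolism. The cells were IMR90, a line of human fetal lung fibroblasts, in 5 groups of 3 RNA-seq libraries. In 4 groups the cells were senescent: with shTXNRD1, a short hairpin RNA against the thioredoxin reductase gene TXNRD1; with TRi-1 (spelled Tri-1 in the sample labels), an inhibitor of the TXNRD1 protein; with DMSO, the usual solvent for such a compound; and as senescent control. The remaining group was growing control. The labels give neither the way senescence was induced, nor the dose and time of TRi-1, nor whether the senescent control carried a control hairpin. They also do not say whether replicates were separate cultures, so p-values measure the spread between these libraries, which may be technical.

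The unfolded protein response adjusts the folding capacity of the endoplasmic reticulum. Its sensors are IRE1 (gene ERN1), PERK (gene EIF2AK3) and ATF6, which span the reticulum membrane. IRE1 splices the mRNA of XBP1 into a form that encodes an active transcription factor; ATF6 is cut to release one; PERK phosphorylates eIF2 alpha, which lowers overall protein synthesis while the mRNA of ATF4 is translated more. XBP1 and ATF6 raise chaperones and degradation genes, and ATF4 raises enzymes of amino acid synthesis and effectors such as CHOP (gene DDIT3). Other kinases of eIF2 alpha feed into ATF4 as well. Splicing, phosphorylation and translation are not read by counts per gene, so the values below are mRNA levels.

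Promoters of the members were searched in RefSeq sequence (GRCh38.p14) for 4 published elements of these factors. The search covered both strands of the 250 bases before each listed start of a gene. Of the 41 members, 37 had a promoter there. The endoplasmic reticulum stress element (ERSE), CCAAT and CCACG with any 9 bases between them, was found in 8 members, 21.6% of them, against 25 of 27305 genes, 0.0916%. Those 8 were HSPA5, HSP90B1, PDIA6, CALR, CANX, CRELD2, ERO1B and XBP1. The promoter of HSPA5, which encodes the chaperone BiP, is shown over 170 bases at chr9:125241344-125241513 on the minus strand, because HSPA5 is the usual reporter gene of this response. Shorter windows with the element in capitals are shown for 4 members whose changes are described below. They lie at chr12:103930206-103930244 on the plus strand for HSP90B1, which holds the element at another place too, at chr2:10812843-10812881 on the minus strand for PDIA6, at chr1:236282173-236282208 on the minus strand for ERO1B, and at chr22:28800593-28800631 on the minus strand for XBP1. In ERO1B the element is on the opposite strand from the gene, so the capitals show its complement.
HSPA5: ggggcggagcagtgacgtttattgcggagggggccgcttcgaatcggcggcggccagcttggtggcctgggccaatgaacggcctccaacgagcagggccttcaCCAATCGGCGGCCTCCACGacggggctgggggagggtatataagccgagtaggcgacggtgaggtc
HSP90B1: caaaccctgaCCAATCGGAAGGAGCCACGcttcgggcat
PDIA6: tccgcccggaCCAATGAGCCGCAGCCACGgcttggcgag
ERO1B: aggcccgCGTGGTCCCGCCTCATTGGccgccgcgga
XBP1: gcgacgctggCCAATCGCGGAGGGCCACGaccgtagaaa

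A second form, ERSE-II, ATTGG and CCACG with any 1 base between them, was found in 3 members, SDF2L1, HYOU1 and HERPUD1 (8.11%, against 0.0659% of all genes). The XBP1 element TGACGTGG was found in 2 members, HYOU1 and ALDH18A1 (5.41%, against 0.78% of genes); in HYOU1 it overlaps an ERSE-II. The C/EBP-ATF response element, TGATGNAA, through which ATF4 acts, was found in HERPUD1, CHAC1 and ASNS (8.11%, against 3.89% of genes). The promoter of ASNS, the asparagine synthetase gene in which this kind of element was described, is shown over 120 bases at chr7:97872409-97872528 on the minus strand. CHAC1 is shown at chr15:40953252-40953279 and HERPUD1 at chr16:56931956-56931983, both on the plus strand with the element on the opposite strand.
ASNS: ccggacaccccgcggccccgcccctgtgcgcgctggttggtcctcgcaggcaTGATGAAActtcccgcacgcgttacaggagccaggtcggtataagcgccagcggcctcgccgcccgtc
CHAC1: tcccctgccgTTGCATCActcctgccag
HERPUD1: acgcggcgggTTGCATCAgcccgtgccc

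These matches describe letters before the listed starts of each gene, of which CANX had 4, and are not evidence of binding. The members were chosen by name as genes of this response and are among the genes set beside them. Their higher shares therefore test nothing about these data. The members with an ERSE did not share a direction. Of the 8, 1 rose and 3 fell in senescent against growing cells (median log2 change -0.12), 3 rose and 1 fell with shTXNRD1 (median 0.09), and 1 fell with TRi-1 (median -0.08). Of the 29 other members with a promoter, 9 rose and 10 fell, 7 rose and 10 fell, and 2 rose and 7 fell in the same comparisons. Over all genes tested, 27.4% rose and 29.5% fell in senescence, 25.8% and 24.8% with shTXNRD1, and 7.64% and 12.2% with TRi-1; with 8 members, 1 is 12.5% and 3 are 37.5%, so nothing is read from these counts.

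Library totals ran from 18033076 to 28909046 counts (median 21156213). Levels are TMM-scaled CPM, the standard edgeR measure of a gene's counts relative to the size of its library; errors of levels are SD over 3 libraries, and errors of log2 changes are SE from edgeR. All 7 fibroblast markers were present in every group, with summed levels of 10480 to 20670 CPM over all libraries. Markers of endothelium (51.7 to 172 CPM), leukocytes (15.5 to 92.8 CPM) and epithelium (45.4 to 82.7 CPM) were low, with CD3E at 0 in all groups, TYROBP at 0 in the senescent groups, ITGB2 and CDH5 at 0 in growing cells, and SFTPC at 0 throughout. The marker sums moved with the groups. The fibroblast sum was 10480 to 14290 CPM with shTXNRD1, 11020 to 11780 CPM with TRi-1, 14330 to 16930 CPM with DMSO, 15600 to 18310 CPM in senescent control and 15200 to 20670 CPM in growing cells. The leukocyte sum was 18.8 to 37.9 CPM with shTXNRD1, 91.0 to 92.8 CPM with TRi-1, 56.2 to 73.9 CPM with DMSO, 72.0 to 80.1 CPM in senescent control and 15.5 to 25.5 CPM in growing cells. The endothelial sum was 105.1 to 133 CPM with shTXNRD1, 51.7 to 55.0 CPM with TRi-1, 85.3 to 91.1 CPM with DMSO, 159 to 172 CPM in senescent control and 109 to 134 CPM in growing cells. Their part in the results was not tested. How counts followed transcript GC content varied within groups too (Spearman rho across genes): it was lowest in shTXNRD1 replicate 3 (-0.506), growing control replicate 1 (-0.473) and DMSO replicate 1 (-0.238), next in shTXNRD1 replicate 2 (-0.231), and ran from -0.134 to 0.488 in the other 11. The shTXNRD1 libraries spread most, with replicate 1 at 0.13, and senescent control replicate 3 (0.0432) lay below its replicates 1 and 2 (0.317 and 0.472). A chi-square test between replicates found 1.61 to 50.0 per degree of freedom, so no library was counted as a copy of another.

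TXNRD1 checked the labels. It had 21.05, 21.6 and 25.3 CPM in the shTXNRD1 libraries, against 506, 511 and 528 CPM in senescent control libraries (-4.51 ± 0.08, edgeR adjusted p = 2.02e-13). With TRi-1, which acts on the protein, it had 429.6, 420.4 and 443 CPM, against 430.2, 399 and 395 CPM with DMSO (0.08 ± 0.07, edgeR adjusted p = 0.483). The hairpin libraries carry far less TXNRD1 mRNA, and the TRi-1 libraries overlap their DMSO libraries. With TRi-1 TXNRD1 was called higher under 2 of 16 alternatives (adjusted p from 0.0121 to 0.691). It was also called lower in senescent control against growing cells (-1.67 ± 0.07, edgeR adjusted p = 1.12e-10) and with DMSO against senescent control (-0.34).

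**Figure D1:**
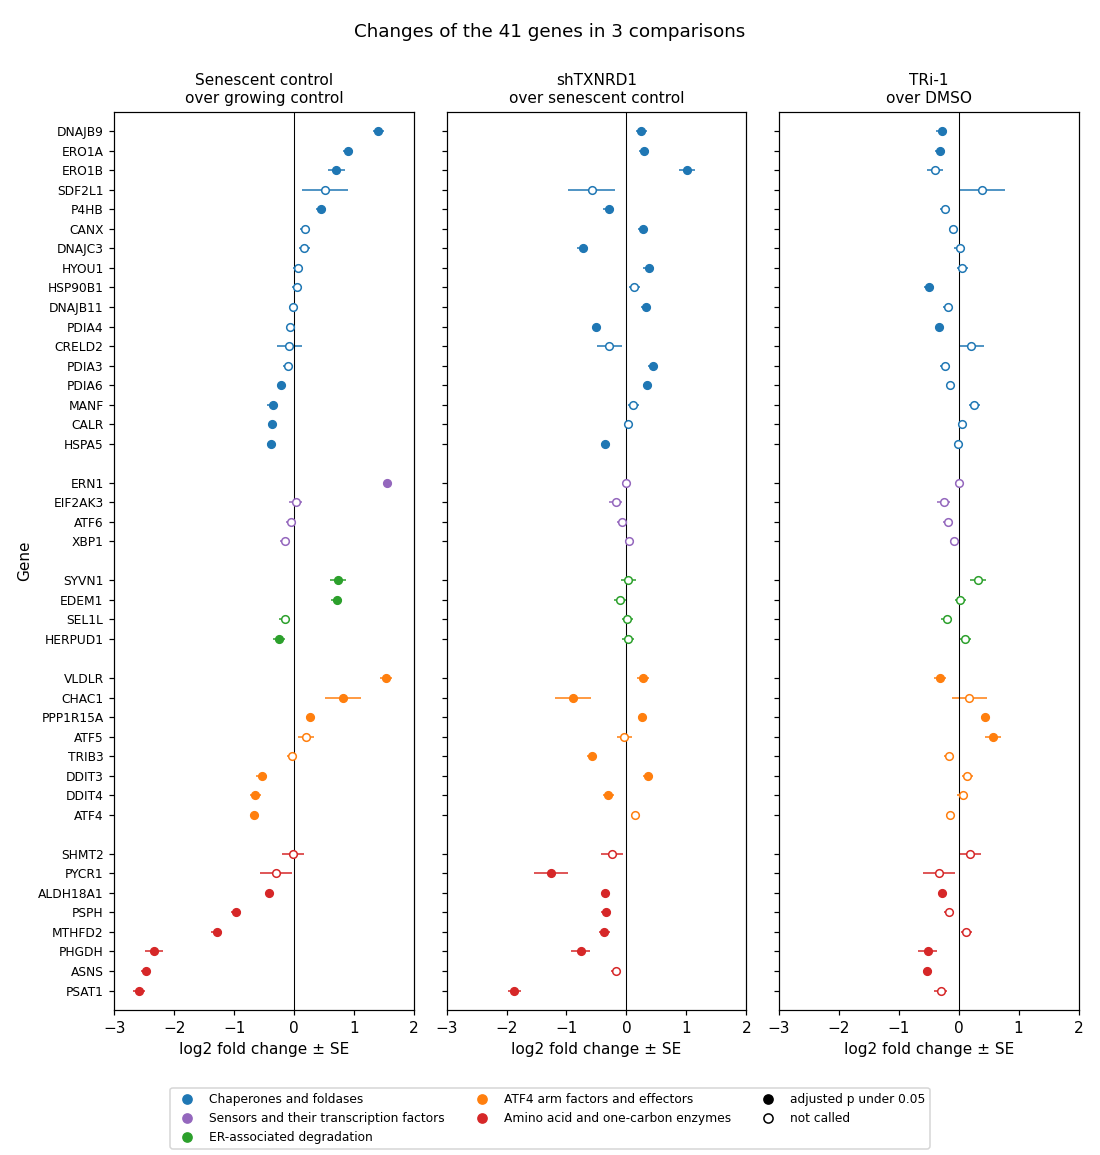
Log2 fold changes ± SE from edgeR for the 41 genes, ordered within each role by their change in senescence, in senescent control over growing control, shTXNRD1 over senescent control, and TRi-1 over DMSO; filled points passed an adjusted p of 0.05. In senescence the amino acid enzymes lie to the left, down to -2.59 for PSAT1, while ERN1, VLDLR and DNAJB9 lie to the right, between 1.41 and 1.56.

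The first comparison took senescent control over growing control, to show what goes with the senescent state. Enzymes that make serine, asparagine and folate units fell most, led by PSAT1 at 6.004-fold, ASNS at 5.57-fold and PHGDH at 5.07-fold lower. The IRE1 gene ERN1 rose 2.94-fold, the lipoprotein receptor VLDLR 2.895-fold and the cochaperone DNAJB9 2.65-fold. ATF4 itself fell 1.59-fold. Of the 41 members, 10 rose and 14 fell, which is 24.4% and 34.1%, where 27.4% of all genes tested rose and 29.5% fell. The members as a whole therefore lay near the share of all genes, with a median log2 change of -0.06 against 0.03 over all genes; the roles differed among themselves. Fewer cells of a type and less RNA per cell cannot be told apart in such bulk samples. Of the 24 calls, 21 held under each of 16 alternatives run. Of the 17 members with no call, 12 were called under at least 1 of them, so a gene said below not to pass is one that did not pass in the edgeR fit of all 15 libraries.

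With the hairpin, 11 members rose and 13 fell in shTXNRD1 against senescent control cells (26.8% and 31.7%, where 25.8% of all genes rose and 24.8% fell). Of the 8 enzymes 6 fell, with PSAT1 3.66-fold and PYCR1 2.399-fold lower. Chaperones and folding enzymes split, 8 up and 4 down, from a 2.01-fold rise of the oxidase gene ERO1B to a 1.66-fold fall of the cochaperone gene DNAJC3. Of the 4 sensors and the 4 degradation genes, 0 passed the test in edgeR, 0 had an unadjusted p under 0.05, and DESeq2 and limma-voom called 0. Under GC correction 4 of these 8 were called, ATF6 (edgeR adjusted p = 4.24e-05), EIF2AK3 (0.000298), SEL1L (0.00559) and SYVN1 (0.0276), and without shTXNRD1 replicate 3 EIF2AK3 and EDEM1 were. The median log2 change of the members was -0.03, against -0.01 over all genes. This comparison shares the senescent control libraries with the one above. Of the 24 calls, 18 held under each of 16 alternatives, and of the 17 members with no call 10 were called under at least 1; in the fit to the compared groups alone, 12 members rose and 10 fell.

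With TRi-1, 2 members rose and 8 fell against DMSO (4.88% and 19.5%, where 7.64% of all genes rose and 12.2% fell). PPP1R15A and ATF5 were the 2 that rose, by 1.36-fold and 1.48-fold. ATF5 overlaps NUP62 on the other strand, a nuclear pore gene with 224% of its counts, and the strand used in counting is not given in the sources used here. NUP62 changed by 0.20 ± 0.15 with TRi-1, -0.33 ± 0.15 with the hairpin and -0.13 ± 0.15 with DMSO against senescent control (edgeR adjusted p = 0.411, 0.0886 and 0.637), and reads of the 2 genes cannot be told apart. ASNS fell 1.44-fold, PHGDH 1.43-fold and HSP90B1, an endoplasmic reticulum form of HSP90, 1.41-fold. The median was -0.14, against 0.01 over all genes. Of the 10 calls, 5 (HSP90B1, PDIA4, PPP1R15A, ASNS and ALDH18A1) held under all 16 alternatives; of the 31 members with no call, 17 were called under at least 1. The number that fell was 5 without DMSO replicate 1 or 3 or without TRi-1 replicate 2 or 3, and 4 without TRi-1 replicate 1; it was 18 with the compared groups alone. Without TRi-1 replicate 2, 1 member rose, since ATF5 was at an adjusted p of 0.0507 (0.00147 to 0.0507 over 16 alternatives).

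The serine, asparagine, folate and proline enzymes were the role with the largest share of falls in the 3 comparisons. In senescent against growing cells 6 of 8 fell and none rose (75% against 29.5% of all genes; median log2 change -1.13), and with shTXNRD1 6 of 8 fell as well (75% against 24.8%), PYCR1 in place of ASNS. With TRi-1 3 of 8 fell (37.5% against 12.2%). Their summed level was 267 ± 3.25 CPM with shTXNRD1, 343 ± 4.12 CPM with TRi-1, 368 ± 6.84 CPM with DMSO, 358 ± 5.37 CPM in senescent control and 732 ± 7.75 CPM in growing cells (n = 3 each).

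PSAT1 encodes phosphoserine aminotransferase, the second enzyme of serine synthesis. It had 4.75, 5.51 and 5.996 CPM in the shTXNRD1 libraries, 10.2, 10.95 and 10.02 CPM in the TRi-1 libraries, 14.4, 11.9 and 12.2 CPM in the DMSO libraries, 19.1, 19.03 and 21.5 CPM in the senescent control libraries and 132, 118 and 108 CPM in the growing libraries. The groups did not overlap in the order shTXNRD1, TRi-1, DMSO, senescent control and growing. The log2 change was -2.59 ± 0.10, edgeR adjusted p = 3.58e-11, in senescent against growing cells. It was -1.87 ± 0.11, edgeR adjusted p = 8.32e-09, with the hairpin, and -0.30 ± 0.11, edgeR adjusted p = 0.0623, with TRi-1, where the test was not passed although every TRi-1 library lay below every DMSO library. With TRi-1 PSAT1 was called lower under 4 of 16 alternatives (adjusted p from 0.0125 to 0.255).

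PHGDH makes the first step of serine synthesis. It had 6.45, 7.35 and 5.65 CPM in the shTXNRD1 libraries, 7.64, 8.83 and 9.26 CPM in the TRi-1 libraries, 11.5, 13.2 and 12.2 CPM in the DMSO libraries, 11.1, 10.9 and 11.1 CPM in the senescent control libraries and 40.97, 62.8 and 64.04 CPM in the growing libraries. Growing replicate 1, the lowest of its group in GC correlation, was the lowest growing library and still above all senescent libraries. The log2 change was -2.34 ± 0.15 in senescence, -0.76 ± 0.16 with the hairpin and -0.52 ± 0.15 with TRi-1 (edgeR adjusted p = 8.74e-09, 0.00107 and 0.0297). The TRi-1 call was lost under 6 of 16 alternatives (adjusted p from 0.0003 to 0.114), among them leaving out any TRi-1 library or DMSO replicate 2 or 3.

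ASNS, whose promoter is shown above, encodes asparagine synthetase. It had 11.6, 11.6 and 13.03 CPM in the shTXNRD1 libraries, 8.09, 8.13 and 8.07 CPM in the TRi-1 libraries, 12.4, 11.5 and 11.05 CPM in the DMSO libraries, 14.2, 12.8 and 13.9 CPM in the senescent control libraries and 80.9, 74.1 and 73.2 CPM in the growing libraries. Every growing library held more than 5 times the level of any senescent library, and the TRi-1 libraries were the lowest of all. Senescent against growing cells differed by -2.48 ± 0.07, edgeR adjusted p = 1.81e-12, and TRi-1 against DMSO by -0.52 ± 0.08, edgeR adjusted p = 0.0003. For the hairpin the change of -0.18 ± 0.07 missed the threshold (edgeR adjusted p = 0.0643). It was called lower under 5 of 16 alternatives (adjusted p from 0.000155 to 0.313).

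MTHFD2, a mitochondrial enzyme of the folate cycle, had 47.7, 56.7 and 60.2 CPM in the shTXNRD1 libraries, 71.8, 67.2 and 74.1 CPM in the TRi-1 libraries, 70.5, 62.9 and 62.04 CPM in the DMSO libraries, 69.1, 70.1 and 73.2 CPM in the senescent control libraries and 192, 168 and 159 CPM in the growing libraries. Its shTXNRD1 libraries were all below senescent control, and its senescent control libraries all below growing cells. The changes were -1.29 ± 0.09 in senescence and -0.37 ± 0.09 with the hairpin (edgeR adjusted p = 2.19e-08 and 0.00378), while TRi-1 gave 0.13 ± 0.09 (edgeR adjusted p = 0.37).

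The 4 other enzymes changed less in senescence. PSPH, the last enzyme of serine synthesis, fell by 1.96-fold in senescence and 1.27-fold with the hairpin. ALDH18A1, which begins proline synthesis, fell in all 3 comparisons, by 1.33-fold, 1.28-fold and 1.21-fold. PYCR1, which completes proline synthesis, had 9.898, 6.69 and 4.36 CPM with shTXNRD1, against 15.7, 19.3 and 15.3 CPM in senescent control (-1.26 ± 0.28, edgeR adjusted p = 0.0023). SHMT2, the mitochondrial serine hydroxymethyltransferase, passed the edgeR test in none of them but was called lower in senescence under GC correction (-0.24, edgeR adjusted p = 0.00331), with 61.9 ± 16.1 CPM with shTXNRD1 and 74.3 ± 16.8 CPM in growing cells.

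**Figure D2:**
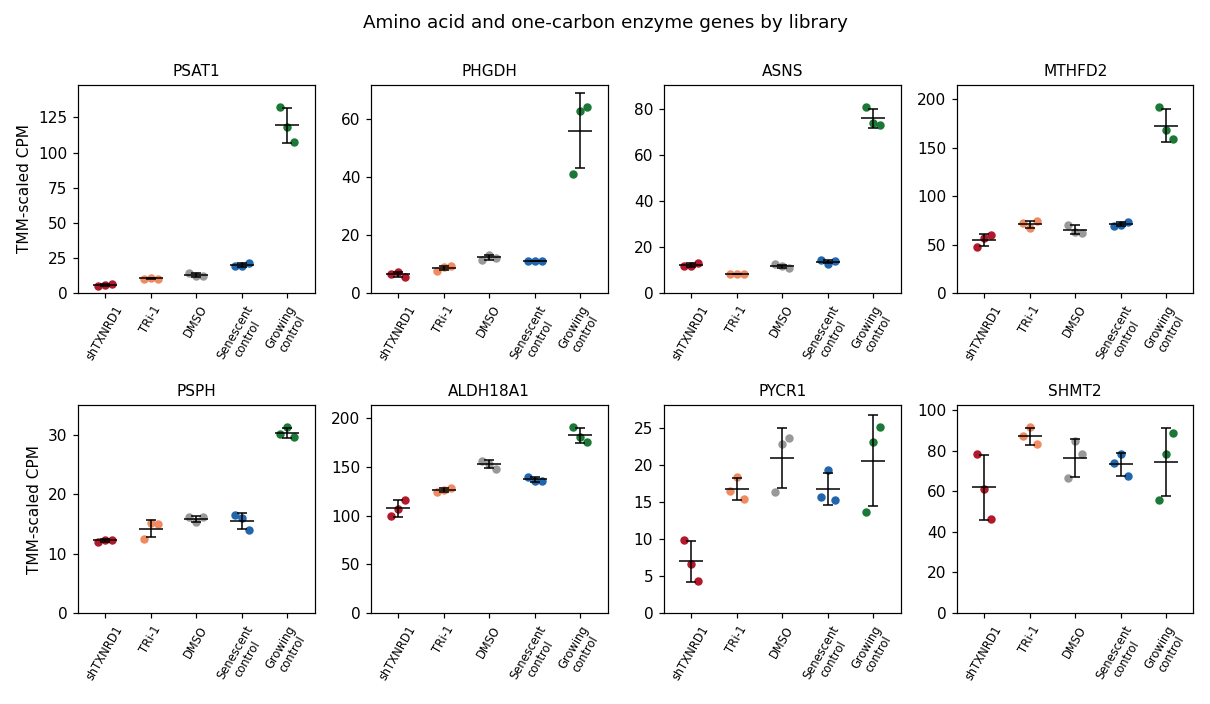
TMM-scaled CPM of the 8 amino acid and one-carbon enzyme genes in each of 15 libraries (points), with the mean and SD of each group (bars). PSAT1, PHGDH, ASNS, MTHFD2, PSPH and ALDH18A1 are highest in growing cells, whereas PYCR1 is lowest with shTXNRD1 and the SHMT2 ranges of shTXNRD1, senescent control and growing cells overlap.

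Of the 4 sensors and their factors, 1 rose in senescence and 0 fell (25% and 0%, where 27.4% of all genes rose and 29.5% fell). With so few genes nothing is read from these counts. ERN1, the gene of IRE1, had 51.3, 53.2 and 51.9 CPM in the shTXNRD1 libraries, 46.5, 46.3 and 46.5 CPM in the TRi-1 libraries, 45.1, 46.3 and 47.6 CPM in the DMSO libraries, 51.5, 49.98 and 55.2 CPM in the senescent control libraries and 18.2, 16.6 and 18.5 CPM in the growing libraries. All 12 senescent libraries were above all growing libraries, and the hairpin libraries lay among the senescent control libraries. ERN1 rose in senescent against growing cells (1.56 ± 0.06, edgeR adjusted p = 2.96e-11), and gave adjusted p = 0.981 with the hairpin and 0.981 with TRi-1 in edgeR.

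XBP1, the factor made from the mRNA that IRE1 splices, had 107, 118 and 132 CPM in the shTXNRD1 libraries, 99.2, 94.9 and 96.8 CPM in the TRi-1 libraries, 106, 97.6 and 103 CPM in the DMSO libraries, 112, 116 and 116 CPM in the senescent control libraries and 138, 129 and 118 CPM in the growing libraries. Its range with shTXNRD1 covered that of senescent control and overlapped that of growing cells. ATF6, a sensor that is itself a transcription factor, had 113, 119.9 and 129.6 CPM in the shTXNRD1 libraries, 119, 114 and 125 CPM in the TRi-1 libraries, 146, 131 and 130.5 CPM in the DMSO libraries, 127, 124 and 129.7 CPM in the senescent control libraries and 149, 124 and 124 CPM in the growing libraries. EIF2AK3, which encodes PERK, had 31.5, 32.9 and 42.1 CPM in the shTXNRD1 libraries, 35.9, 37.8 and 39.2 CPM in the TRi-1 libraries, 49.9, 41.7 and 42.99 CPM in the DMSO libraries, 41.6, 37.5 and 41.7 CPM in the senescent control libraries and 42.8, 37.4 and 38.3 CPM in the growing libraries. In the edgeR fit of all libraries none of the 3 passed in senescence, with the hairpin or with TRi-1, with adjusted p from 0.0832 (XBP1 in senescence) to 0.838 (EIF2AK3 in senescence). Alternatives did call them. In senescence GC correction called all 3, and leaving out growing replicate 3 called XBP1 (lowest adjusted p 0.0309 for XBP1, 0.00419 for ATF6 and 0.00957 for EIF2AK3). With the hairpin ATF6 was called under 2 of 16 alternatives and EIF2AK3 under 3 of 16, and with TRi-1 ATF6 under 4 of 16 and EIF2AK3 under 2 of 16. The counts do not separate the spliced from the unspliced XBP1 mRNA.

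Of the 4 degradation genes, 2 rose and 1 fell in senescence (50% and 25%, where 27.4% of all genes rose and 29.5% fell). With so few genes nothing is read from these counts either. EDEM1, a mannosidase-like protein that hands misfolded glycoproteins to degradation, had 163, 184 and 215 CPM in the shTXNRD1 libraries, 237, 227 and 238 CPM in the TRi-1 libraries, 244, 221 and 223 CPM in the DMSO libraries, 198, 197 and 211 CPM in the senescent control libraries and 139, 119 and 112 CPM in the growing libraries. SYVN1, the ubiquitin ligase HRD1 of the reticulum membrane, had 70.3, 60.03 and 49.5 CPM in the shTXNRD1 libraries, 58.7, 64.4 and 60.1 CPM in the TRi-1 libraries, 40.5, 52.7 and 53.4 CPM in the DMSO libraries, 57.5, 60.2 and 57.96 CPM in the senescent control libraries and 30.3, 36.7 and 38.7 CPM in the growing libraries. For both, all senescent control libraries were above all growing libraries. EDEM1 rose 1.64-fold and SYVN1 1.66-fold in senescence (edgeR adjusted p = 1.88e-05 and 0.000244). SYVN1 overlaps the gene FAU on the same strand, with 38% of its counts, and MRPL49 on the other strand, with 8.22%. FAU changed by 0.26 (edgeR adjusted p = 0.326), and the change of MRPL49 is not given here. Reads where these genes overlap cannot be told apart.

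HERPUD1, a partner of that ligase whose promoter holds both an ERSE-II and an ATF4 element, had 65.5, 73.2 and 85.6 CPM in the shTXNRD1 libraries, 72.1, 68.6 and 73.8 CPM in the TRi-1 libraries, 73.3, 60.9 and 64.7 CPM in the DMSO libraries, 73.5, 71.2 and 76.2 CPM in the senescent control libraries and 96.9, 84.5 and 80.8 CPM in the growing libraries. It fell in senescence (-0.25 ± 0.10, edgeR adjusted p = 0.0422), a call lost under 10 of 16 alternatives (adjusted p from 0.013 to 0.164). Leaving out growing replicate 1 or 2, or any senescent control library, ended it. SEL1L, which holds the ligase complex together, had 300.2, 329 and 378 CPM in the shTXNRD1 libraries, 319.8, 332 and 332 CPM in the TRi-1 libraries, 401, 371 and 358 CPM in the DMSO libraries, 332, 321 and 345 CPM in the senescent control libraries and 421, 350.1 and 339 CPM in the growing libraries. Its libraries overlapped in senescent control and growing cells, and in the edgeR fit of all libraries it passed in no comparison; it was called with TRi-1 under 4 of 16 alternatives (adjusted p from 0.00422 to 0.378), with the hairpin under 1 of 16 and with DMSO under 2 of 16. With TRi-1 0 of the 4 degradation genes and 0 of the 4 sensors passed in that fit, in DESeq2 or in limma-voom, while 2 of each had an unadjusted p under 0.05 (SEL1L, SYVN1, ATF6 and EIF2AK3). In the edgeR fit to the compared groups alone ATF6, EIF2AK3 and SEL1L were called, and under GC correction those 3 and SYVN1.

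Among the 17 chaperones and folding enzymes, 4 rose and 4 fell in senescence (23.5% each way, where 27.4% and 29.5% of all genes did). HSPA5, which encodes BiP, the chaperone that holds the sensors inactive, had 857, 928 and 1053 CPM in the shTXNRD1 libraries, 1404, 1404 and 1399.9 CPM in the TRi-1 libraries, 1474, 1382 and 1371 CPM in the DMSO libraries, 1209.8, 1167 and 1239 CPM in the senescent control libraries and 1686, 1539 and 1497 CPM in the growing libraries. All senescent control libraries were below all growing libraries, and all shTXNRD1 libraries below senescent control. HSPA5 fell by 1.31-fold in senescence (-0.39 ± 0.07, edgeR adjusted p = 0.000344) and by 1.27-fold with the hairpin (-0.35 ± 0.07, edgeR adjusted p = 0.000917), while TRi-1 gave adjusted p = 0.962.

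DNAJB9, a BiP cochaperone that represses IRE1, had 113, 122 and 138 CPM in the shTXNRD1 libraries, 66.9, 66.6 and 70.4 CPM in the TRi-1 libraries, 92.4, 76.1 and 80.1 CPM in the DMSO libraries, 104, 102 and 108 CPM in the senescent control libraries and 44.5, 37.9 and 35.9 CPM in the growing libraries. Growing libraries were the lowest and the hairpin libraries the highest. DNAJB9 rose in senescence (1.41 ± 0.10, edgeR adjusted p = 1.53e-08). With the hairpin it rose (0.25 ± 0.09, edgeR adjusted p = 0.0371) and with TRi-1 it fell (-0.29 ± 0.09, edgeR adjusted p = 0.0463); these 2 calls were lost under 8 of 16 and 7 of 16 alternatives (adjusted p from 0.00502 to 0.153 and 0.00287 to 0.209). For the hairpin those included leaving out any senescent control library or shTXNRD1 replicate 2 or 3, and for TRi-1 any TRi-1 library or DMSO replicate 1 or 3. DNAJB9 overlaps PNPLA8 on the other strand, a phospholipase gene with nearly as many counts, and the strand used in counting is not given in the sources used here. PNPLA8 changed by 1.36 ± 0.10 in senescence, -0.61 ± 0.10 with the hairpin and -0.30 ± 0.10 with TRi-1. Since the strand is not known, reads where the 2 genes overlap cannot be told apart in any comparison. THAP5, which overlaps DNAJB9 too, changed by -0.03 ± 0.09, -1.14 ± 0.09 and -0.22 ± 0.09, and with the hairpin both neighbours fell while DNAJB9 rose.

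The oxidases that recharge protein disulfide isomerase are ERO1A and ERO1B. ERO1A had 233, 253 and 284 CPM in the shTXNRD1 libraries, 225, 225 and 231 CPM in the TRi-1 libraries, 301, 274 and 274 CPM in the DMSO libraries, 213, 200.5 and 212 CPM in the senescent control libraries and 127, 104 and 105 CPM in the growing libraries. ERO1B had 25.3, 27.04 and 30.5 CPM in the shTXNRD1 libraries, 11.5, 11.3 and 11.4 CPM in the TRi-1 libraries, 16.01, 14.1 and 14.6 CPM in the DMSO libraries, 13.8, 12.5 and 14.95 CPM in the senescent control libraries and 10.6, 7.73 and 6.86 CPM in the growing libraries. The shTXNRD1 libraries of ERO1B stood above every library of the other groups. ERO1A rose in senescence (0.90 ± 0.08, edgeR adjusted p = 5.52e-07) and with the hairpin (0.30 ± 0.08, edgeR adjusted p = 0.00821), and fell with TRi-1 (-0.32 ± 0.08, edgeR adjusted p = 0.0158). That last call was lost without DMSO replicate 1 or TRi-1 replicate 1 (adjusted p from 4.05e-05 to 0.074 over 16 alternatives). ERO1B rose 1.63-fold in senescence (edgeR adjusted p = 0.000474) and 2.01-fold with the hairpin (edgeR adjusted p = 2.02e-05), and gave -0.39 ± 0.13 with TRi-1 (edgeR adjusted p = 0.0558). With TRi-1 ERO1B was called lower under 6 of 16 alternatives (adjusted p from 0.00408 to 0.179).

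DNAJC3, a cochaperone that also inhibits eIF2 alpha kinases, had 82.3, 96.5 and 105 CPM in the shTXNRD1 libraries, 149, 145 and 145 CPM in the TRi-1 libraries, 155, 139 and 141 CPM in the DMSO libraries, 162, 147 and 162 CPM in the senescent control libraries and 156, 129 and 134 CPM in the growing libraries. Only the shTXNRD1 libraries stood apart, below every other library. DNAJC3 fell with the hairpin (-0.73 ± 0.09, edgeR adjusted p = 1.3e-05), and gave adjusted p = 0.124 in senescence and 0.924 with TRi-1 in edgeR.

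The disulfide isomerase family did not move as one. PDIA3 had 905, 1004 and 1126 CPM with shTXNRD1 and 746, 712 and 786 CPM in senescent control, a rise of 1.35-fold, and PDIA6 rose 1.26-fold. PDIA4 had 232, 234 and 212 CPM with shTXNRD1 and 320.2, 328 and 318 CPM in senescent control, a fall of 1.43-fold, and P4HB, the founding member of the family, fell 1.23-fold. P4HB was lost in the fit to the compared groups alone (adjusted p from 0.0011 to 0.162 over 16 alternatives). In senescence P4HB rose 1.36-fold and PDIA6 fell 1.16-fold. With TRi-1 PDIA4 passed the edgeR test, 1.25-fold lower, and held under all 16 alternatives. The other 3 missed it there but were called lower under some alternatives, PDIA3 under 7 of 16 (DESeq2 and limma-voom among them), P4HB under 4 of 16 (DESeq2 among them) and PDIA6 under 4 of 16 (edgeR adjusted p = 0.0543, 0.0773 and 0.0778 in the fit of all libraries).

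The lectin chaperones are CALR and CANX. CALR fell 1.29-fold in senescence and CANX rose 1.21-fold with the hairpin. DNAJB11, a further BiP cochaperone, and HYOU1, an exchange factor for BiP, rose 1.25-fold and 1.29-fold with the hairpin. MANF, a secreted protein of the reticulum, fell 1.28-fold in senescence. HSP90B1 was lower with TRi-1 at 1465, 1441 and 1448 CPM, against 2216, 1972 and 1956 CPM with DMSO (-0.50 ± 0.09, edgeR adjusted p = 0.00126). CRELD2 and SDF2L1, which are stress-induced in many cells, passed in no comparison in the edgeR fit of all libraries. CRELD2 was called in senescence under GC correction (edgeR adjusted p = 0.000826), and with the hairpin (0.0473) and in the difference from TRi-1 (0.0426) without shTXNRD1 replicate 1. SDF2L1 was at 2.08 to 7.99 CPM over the 15 libraries.

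**Figure D3:**
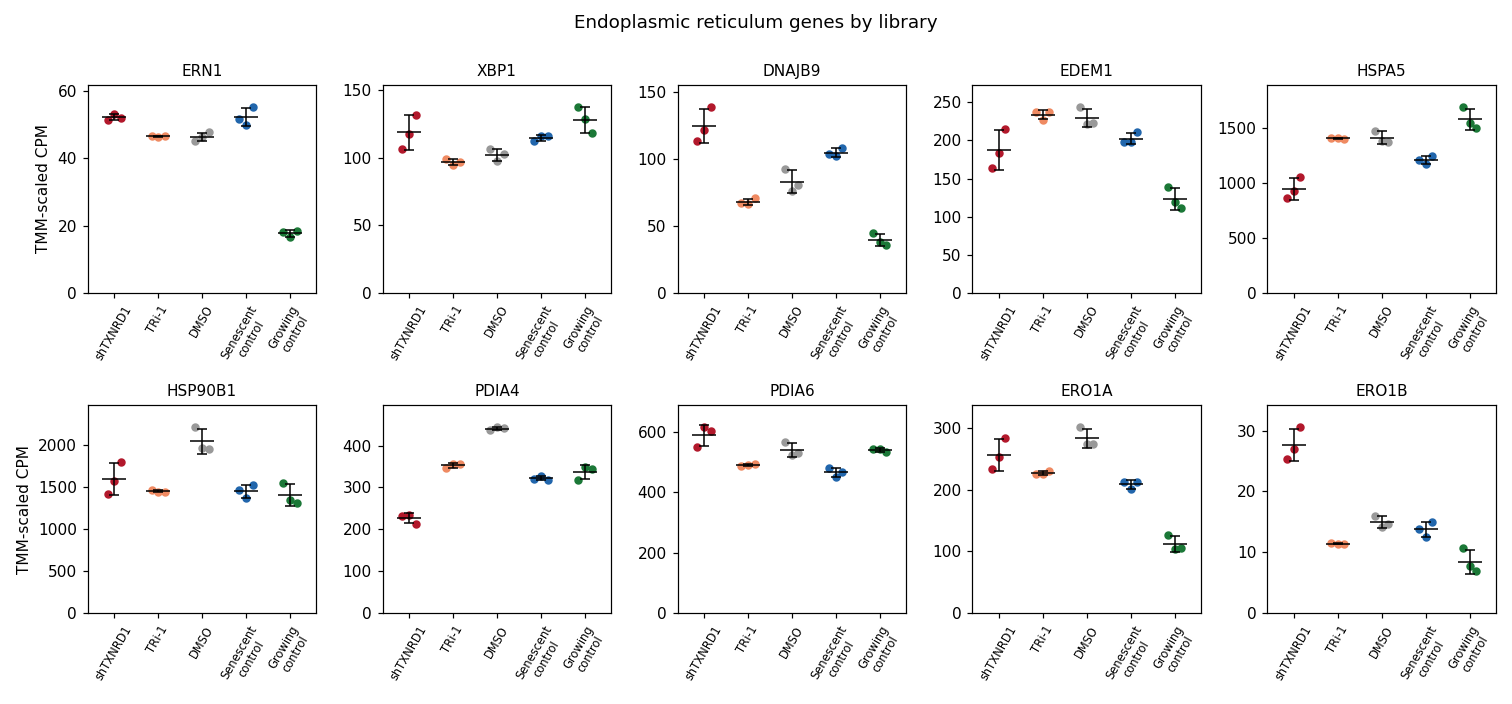
TMM-scaled CPM of 10 endoplasmic reticulum genes in each of 15 libraries (points), with the mean and SD of each group (bars). ERN1, DNAJB9, EDEM1 and ERO1A are lowest in growing cells, ERO1B is highest with shTXNRD1, and HSP90B1 and PDIA4 are highest with DMSO.

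In the ATF4 arm, 3 of 8 members rose and 3 fell in senescence (37.5% each way, where 27.4% of all genes rose and 29.5% fell). ATF4 had 215, 246 and 252 CPM in the shTXNRD1 libraries, 183, 180.0 and 187 CPM in the TRi-1 libraries, 208, 205 and 195 CPM in the DMSO libraries, 212, 208 and 226 CPM in the senescent control libraries and 352, 350.2 and 328 CPM in the growing libraries. All growing libraries were above all senescent libraries. ATF4 fell in senescence (-0.67 ± 0.06, edgeR adjusted p = 5.24e-07), and its change with the hairpin missed the threshold (0.15 ± 0.06, edgeR adjusted p = 0.0714), as did that with TRi-1 (-0.15 ± 0.06, edgeR adjusted p = 0.128). The last 2 changes were called under 3 of 16 and 2 of 16 alternatives (adjusted p from 0.00514 to 0.217 and 0.0085 to 0.33).

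DDIT3, the gene of the proapoptotic factor CHOP, had 18.5, 20.5 and 19.9 CPM in the shTXNRD1 libraries, 12.5, 14.9 and 15.3 CPM in the TRi-1 libraries, 13.9, 12.7 and 12.1 CPM in the DMSO libraries, 15.4, 14.5 and 16.1 CPM in the senescent control libraries and 22.6, 22.6 and 21.7 CPM in the growing libraries. The shTXNRD1 libraries lay above senescent control and below growing cells. It fell in senescence (-0.54 ± 0.09, edgeR adjusted p = 8.65e-05) and rose with the hairpin (0.36 ± 0.09, edgeR adjusted p = 0.003). DDIT3 overlaps MARS1 on the other strand, a gene with several times its counts, which changed by -0.24 ± 0.06 in senescence and 0.08 ± 0.06 with the hairpin. It also overlaps MBD6 on the other strand, with 141% of its counts, whose change is not given here. The strand used in counting is not given in the sources used here, so reads where these genes overlap cannot be told apart.

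DDIT4, the gene of REDD1, an inhibitor of mTORC1, had 18.1, 18.3 and 15.2 CPM in the shTXNRD1 libraries, 21.9, 22.1 and 19.4 CPM in the TRi-1 libraries, 20.9, 19.03 and 20.8 CPM in the DMSO libraries, 22.7, 21.9 and 19.1 CPM in the senescent control libraries and 31.8, 32.7 and 35.3 CPM in the growing libraries. Growing libraries were the highest. It fell in senescence (-0.65 ± 0.09, edgeR adjusted p = 2.94e-05). With the hairpin it fell (-0.30 ± 0.09, edgeR adjusted p = 0.0136), a call lost under 4 of 16 alternatives (adjusted p from 0.00644 to 0.531), without senescent control replicate 1 or shTXNRD1 replicate 3 among them. After a correction for GC content the hairpin change was 0.16 in the other direction; the transcript of DDIT4 holds 65.1% GC.

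VLDLR, a lipoprotein receptor gene that ATF4 activates, had 50.9, 52.6 and 66.3 CPM in the shTXNRD1 libraries, 40.8, 39.7 and 39.1 CPM in the TRi-1 libraries, 51.3, 47.7 and 49.3 CPM in the DMSO libraries, 44.9, 45.3 and 49.8 CPM in the senescent control libraries and 18.6, 14.8 and 14.9 CPM in the growing libraries. Every senescent library held more than 2 times the level of any growing library. VLDLR rose in senescence (1.53 ± 0.11, edgeR adjusted p = 2.03e-08). The rise with the hairpin (0.28 ± 0.10, edgeR adjusted p = 0.0351) was lost without senescent control replicate 1 or 2 or shTXNRD1 replicate 3, and the fall with TRi-1 (-0.31 ± 0.10, edgeR adjusted p = 0.0482) without any one of its 6 libraries (adjusted p from 0.0139 to 0.18 and 0.00137 to 0.143 over 16 alternatives).

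CHAC1, which breaks down glutathione and whose promoter holds the ATF4 element shown above, had 29.9, 21.96 and 13.2 CPM in the shTXNRD1 libraries, 43.4, 45.1 and 40.02 CPM in the TRi-1 libraries, 27.6, 41.4 and 44.5 CPM in the DMSO libraries, 36.9, 47.5 and 36.6 CPM in the senescent control libraries and 14.2, 24.7 and 30.3 CPM in the growing libraries. The libraries of shTXNRD1 and of growing cells spread over more than 2 times. CHAC1 rose in senescence (0.81 ± 0.30, edgeR adjusted p = 0.0356) and fell with the hairpin (-0.89 ± 0.30, edgeR adjusted p = 0.0257). Neither call was firm: they were lost under 6 of 16 and 5 of 16 alternatives (adjusted p from 0.0046 to 0.132 and 0.00177 to 0.0918). In senescence that was so without growing replicate 1 or 2 or senescent control replicate 1 or 2, and with the hairpin without senescent control replicate 2 or shTXNRD1 replicate 2 or 3. The lowest library of CHAC1 in shTXNRD1, growing and DMSO cells was the one of lowest GC correlation in its group.

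PPP1R15A encodes GADD34, which directs the phosphatase of eIF2 alpha. It had 157, 147 and 135 CPM in the shTXNRD1 libraries, 95.1, 102 and 97.5 CPM in the TRi-1 libraries, 71.3, 71.4 and 73.9 CPM in the DMSO libraries, 122, 125 and 119 CPM in the senescent control libraries and 95.1, 104 and 106 CPM in the growing libraries. It is the 1 member that rose with both the hairpin (0.26 ± 0.06, edgeR adjusted p = 0.003) and TRi-1 (0.44 ± 0.06, edgeR adjusted p = 0.000236), and it rose in senescence (0.26 ± 0.06, edgeR adjusted p = 0.00242). The TRi-1 libraries, set against DMSO in that test, all lay below the senescent control libraries. The rise in senescence became 0.06 (edgeR adjusted p = 0.356) after correction for GC content (adjusted p from 0.000182 to 0.356 over 16 alternatives). TRIB3, a pseudokinase that binds CHOP and ATF4, had 10.55, 11.2 and 10.2 CPM with shTXNRD1, against 15.2, 16.8 and 15.9 CPM in senescent control (-0.58 ± 0.08, edgeR adjusted p = 3.59e-05). After correction for GC content the change of TRIB3 was -0.20 (edgeR adjusted p = 0.291; 5.53e-07 to 0.291 over 16 alternatives).

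**Figure D4:**
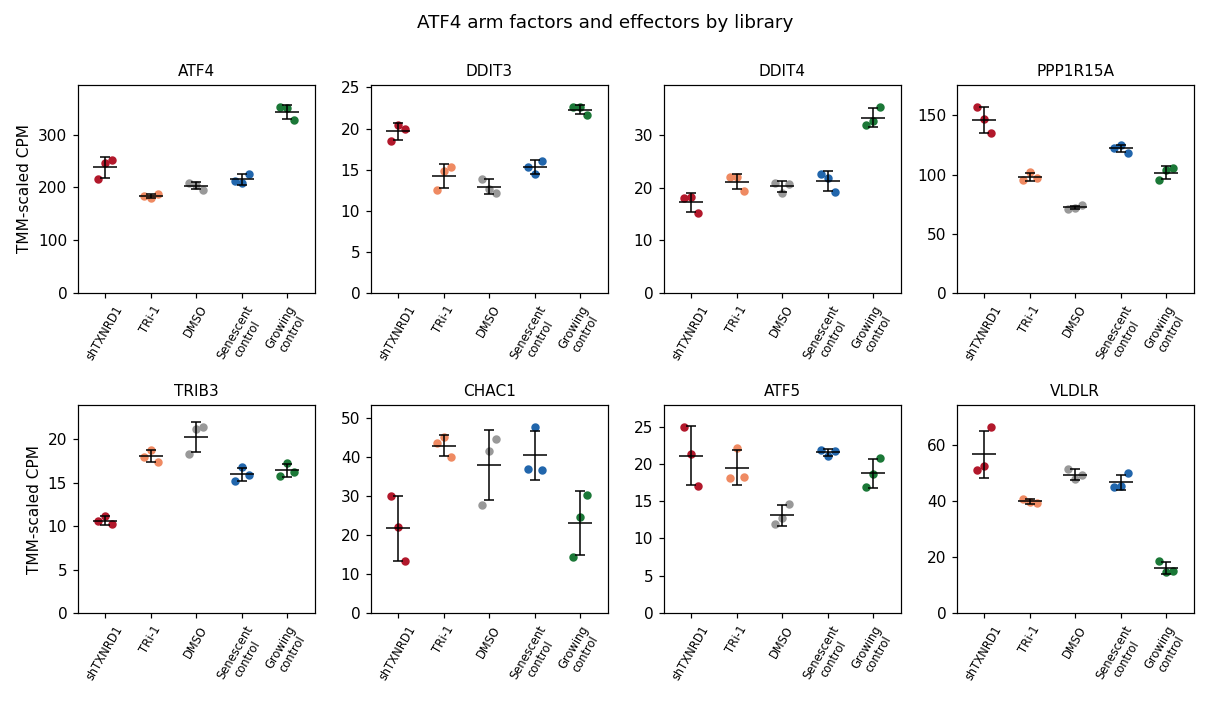
TMM-scaled CPM of the 8 ATF4 arm genes in each of 15 libraries (points), with the mean and SD of each group (bars). ATF4, DDIT3 and DDIT4 are highest and VLDLR lowest in growing cells, TRIB3 is lowest with shTXNRD1, and PPP1R15A and ATF5 are lowest with DMSO.

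Both ways of inhibiting TXNRD1 were compared over comparisons that share no library. Members called in the same direction were PPP1R15A, higher in both (2.44% of the members, 2.72% of all genes), and ALDH18A1, PHGDH and PDIA4, lower in both (7.32%, 5.43% of all genes). Members called in opposite directions were VLDLR, DNAJB9 and ERO1A (7.32%, 5.32% of all genes), each higher with the hairpin and lower with TRi-1. Reads where DNAJB9 and PNPLA8 overlap cannot be told apart in either comparison. The falls of ERO1A and PDIA4 with TRi-1 start from DMSO levels above senescent control, as described below. The rise of PPP1R15A with TRi-1 starts from a DMSO level below senescent control. In the edgeR fit of all libraries, a further 17 passed with the hairpin alone, 3 (ATF5, ASNS and HSP90B1) with TRi-1 alone and 14 with neither. Some of these, ASNS and PSAT1 among them, were called in the other comparison too under some alternatives.

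The difference itself, the effect of shTXNRD1 minus that of TRi-1, was higher for 11 members and lower for 7 (26.8% and 17.1%, where 22.1% and 19.5% of all genes were). The number lower was 13 without shTXNRD1 replicate 1 and 5 in the lowest case of a library left out. Folding genes made up 8 of the 11, which is 47.1% of the 17 folding genes, where 22.1% of all genes were higher. They were ERO1B (1.39 ± 0.19, edgeR adjusted p = 4.95e-05), PDIA3 (0.67 ± 0.11), HSP90B1 (0.63 ± 0.12), ERO1A (0.62 ± 0.12), DNAJB9 (0.53 ± 0.13), DNAJB11 (0.50 ± 0.10), PDIA6 (0.48 ± 0.08) and CANX (0.36 ± 0.11). The other 3 were VLDLR (0.59 ± 0.15), ASNS (0.35 ± 0.11) and ATF4 (0.29 ± 0.09). For HSP90B1 the difference came with a fall under TRi-1 and no call under the hairpin. The difference rests on the DMSO libraries too. Of the 8, HSP90B1, ERO1A and PDIA6 were called higher and DNAJB9 lower with DMSO against senescent control, as described below. The GC correlation was -0.506 to 0.13 in the shTXNRD1 libraries and 0.394 to 0.488 in the TRi-1 libraries. Under GC correction all 8 folding genes were still called.

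Among those lower, PSAT1 differed most (-1.57 ± 0.15, edgeR adjusted p = 2.75e-06), then DNAJC3 (-0.75 ± 0.13, edgeR adjusted p = 0.00038), ATF5 (-0.60 ± 0.19), MTHFD2 (-0.49 ± 0.13), TRIB3 (-0.41 ± 0.11), DDIT4 (-0.37 ± 0.13) and HSPA5 (-0.34 ± 0.10). Calls of CANX, ATF4, ATF5, DDIT4, TRIB3 and ASNS were lost under at least 1 of 22 alternatives. Under GC correction the differences of DDIT4 and TRIB3 changed sign, to 0.30 and 0.13, and neither was called. Leaving out DMSO replicate 1 ended the calls of CANX, ATF5 and ASNS, TRi-1 replicate 2 that of ATF5, and any of 6 libraries that of DDIT4. Among the 23 members with no call were PHGDH at -0.25 ± 0.22 and CHAC1 at -1.07 ± 0.42, which is not evidence that the effects were equal.

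**Figure D5:**
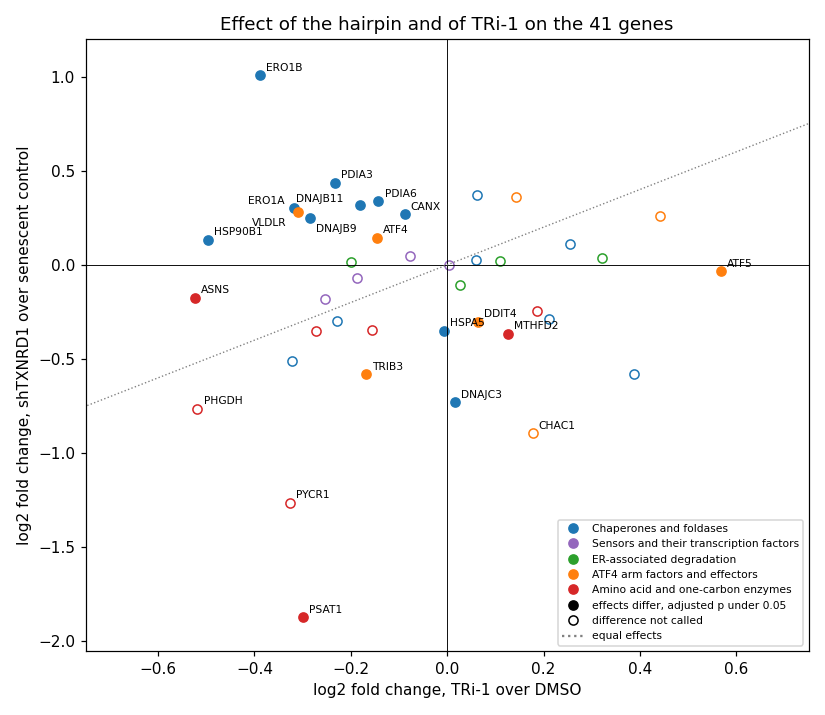
Log2 fold change with shTXNRD1 over senescent control (vertical) against TRi-1 over DMSO (horizontal) for the 41 genes, coloured by role; filled points are genes whose 2 effects differed at an adjusted p of 0.05, and the dotted line marks equal effects. Folding genes from ERO1B to CANX lie above the line and left of 0, PSAT1 lies far below it, and PPP1R15A is the open orange point at 0.44 and 0.26.

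DMSO cells were also set against the senescent control, since the TRi-1 comparison rests on them. Of the 41 members 7 rose and 4 fell with DMSO (17.1% and 9.76%, where 8.36% and 7.87% of all genes did). Rises were in 6 folding genes, HSP90B1 (0.49 ± 0.09), PDIA4 (0.45 ± 0.05), ERO1A (0.44 ± 0.08), CALR (0.24 ± 0.06), HSPA5 (0.23 ± 0.07) and PDIA6 (0.21 ± 0.05), and in TRIB3 (0.35 ± 0.08). Falls were in PPP1R15A (-0.76 ± 0.06), ATF5 (-0.71 ± 0.13), PSAT1 (-0.63 ± 0.10) and DNAJB9 (-0.34 ± 0.09). The labels name no other difference between these groups.

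DMSO libraries enter both this comparison and the one with TRi-1, so the values are set side by side without a test. PPP1R15A averaged 98.1 ± 3.38 CPM with TRi-1, 72.2 ± 1.48 CPM with DMSO and 122 ± 3.33 CPM in senescent control. ATF5, an ATF4-related factor, averaged 19.5 ± 2.32 CPM, 13.1 ± 1.403 CPM and 21.6 ± 0.476 CPM in those groups. HSP90B1 averaged 1451 ± 12.2 CPM, 2048 ± 145 CPM and 1455 ± 78.1 CPM. In each of these 3 genes the TRi-1 mean lay nearer the senescent control mean than the DMSO mean did. ERO1A and PDIA4 also rose with DMSO and fell with TRi-1, each by less than it had risen. ASNS and PHGDH were different, with TRi-1 below both: ASNS averaged 8.1 ± 0.0309 CPM with TRi-1, 11.7 ± 0.677 CPM with DMSO and 13.6 ± 0.748 CPM in senescent control. Calls with DMSO for HSPA5, DNAJB9, PDIA6, CALR and TRIB3 were lost under at least 1 of 16 alternatives. Any library left out ended that of HSPA5, senescent control replicate 1 or 3 or DMSO replicate 2 or 3 that of DNAJB9, and senescent control replicate 2 or DMSO replicate 1 that of PDIA6.

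Levels between genes were compared per kilobase of exon in the senescent control libraries. The secretory chaperones led, with CALR at 529 CPM per kb, HSP90B1 at 309.9, HSPA5 at 308.5, CANX at 267 and P4HB at 254. ATF4 was the highest gene outside that role, at 85.6 CPM per kb. The lowest were ASNS at 3.06, ERO1B at 2.57 and PHGDH at 1.197 CPM per kb. ERN1 (4.81 CPM per kb) and EIF2AK3 (7.41 CPM per kb) were the lower of the sensors, and ATF6 (16.1 CPM per kb) the higher.

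Beyond the 41, 87 further genes of the pathway were listed, of which 83 were tested. In senescence 18 rose and 31 fell, with shTXNRD1 20 rose and 29 fell, and with TRi-1 7 rose and 10 fell. These are 21.7% and 37.3% (27.4% and 29.5% of all genes), 24.1% and 34.9% (25.8% and 24.8% of all genes), and 8.43% and 12% (7.64% and 12.2% of all genes). Shares near those of all genes say nothing particular of the lists below. Of 17 aminoacyl-tRNA synthetases, many of which ATF4 activates, 1 rose (CARS1, 0.40 ± 0.05) and 9 fell in senescence (5.88% and 52.9%). WARS1, for tryptophan, had 210.5, 212 and 209.8 CPM in senescent control, against 538, 543 and 534 CPM in growing cells (-1.35 ± 0.04, edgeR adjusted p = 2.31e-12). With the hairpin 4 of the 17 rose, RARS1 most (0.57 ± 0.09), and 4 fell, EPRS1 most (-0.53 ± 0.09). That is 23.5% each way, near the 25.8% and 24.8% of all genes. With TRi-1 3 rose, HARS1 most (0.40 ± 0.05), and none fell (17.6% and 0%, where 7.64% and 12.2% of all genes did).

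Of 19 tested partners and effectors of ATF4, 7 rose and 7 fell in senescence (36.8% each way, where 27.4% and 29.5% of all genes did). GDF15, a stress cytokine that p53 also controls, had 172, 188 and 145 CPM in senescent control, against 2.86, 6.45 and 7.799 CPM in growing cells (4.90 ± 0.31, edgeR adjusted p = 2.88e-08). ADM2, a secreted peptide gene, changed most in the other direction (-1.59 ± 0.40). With the hairpin SESN2, a stress-induced inhibitor of mTORC1, rose most (1.01 ± 0.21, edgeR adjusted p = 0.00131) and ALDH1L2, a mitochondrial folate enzyme, fell most (-1.58 ± 0.11, edgeR adjusted p = 5.13e-08). With TRi-1 1 rose, TNFRSF10B, a death receptor (0.14 ± 0.05), and 3 fell, KLHL24 most (-0.66 ± 0.11). These are 5.26% and 15.8%, where 7.64% of all genes rose and 12.2% fell. CTH, which makes cysteine, had the largest positive difference between hairpin and TRi-1 (1.51 ± 0.24).

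Of 6 tested membrane-bound factors and their proteases, none rose and 5 fell with the hairpin (83.3%, where 25.8% of all genes rose and 24.8% fell). NFE2L1, a factor held in the reticulum membrane that raises proteasome genes, had 182, 161 and 142 CPM with shTXNRD1, against 453, 468 and 448 CPM in senescent control (-1.50 ± 0.09, edgeR adjusted p = 1.41e-08). Of 14 other degradation genes 2 rose and 4 fell with the hairpin (14.3% and 28.6%), FAF2, which recruits the extraction ATPase VCP, most (-1.71 ± 0.07, edgeR adjusted p = 9.19e-11). It had 59.5, 63.5 and 67.2 CPM with shTXNRD1, against 206, 202 and 215 CPM in senescent control. EDEM3, a relative of EDEM1, rose in senescence (0.64 ± 0.09) and fell with TRi-1 (-0.35 ± 0.09). Of 20 other folding and transport genes 4 rose and 8 fell with the hairpin (20% and 40%), with ERP29 (0.60 ± 0.06) and the coat protein gene SEC24D (-0.92 ± 0.06) the largest. Of 7 eIF2 alpha kinase and phosphatase partners, 4 fell in senescence (57.1%, where 29.5% of all genes did), NCK1 most (-0.47 ± 0.09), and with the hairpin 2 rose and 2 fell (28.6% each way), PPP1R15B (0.62 ± 0.07) and EIF2AK2 (-0.44 ± 0.09) the largest.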

How the data were processed

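RNA of 15 IMR90 libraries was sequenced as paired-end reads of 75 bp from KAPA RNA HyperPrep libraries, per the labels' protocols. The authors deposited counts, whole numbers per Ensembl gene with no scaling. The submitters' processing notes name RSEM 1.2.3 and DESeq2, so counts may be rounded estimates; the aligner, strand and build behind this table were not given in the sources used here. Symbols came from a table of gene names and GENCODE 29; genes without one held 0.680% of counts. Depth was 18033076 to 28909046 counts per library.

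One edgeR 4.0.16 model (R 4.3.3; TMM, filterByExpr, robust quasi-likelihood F test) covered all 15 libraries by group, with 10 residual degrees of freedom. P-values were two-sided, adjusted by Benjamini-Hochberg over 15994 genes in each of 5 comparisons; a gene was called under 0.05. An exact permutation test of 3 against 3 cannot go below p = 0.1. On simulated counts the fit recovered 86.4% of 4-fold, 67.2% of 2-fold and 35.8% of 1.5-fold changes in the senescence comparison (15655 genes). Only 66 or 67 genes, drawn over all levels, were changed at each fold. In the data 4383 genes rose and 4725 fell in that comparison. The recovered shares therefore cannot be carried over to the members.

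The members and lists were chosen with earlier results of these data known. Per-library values are given for up to 4 members of each role with the largest change, and for ATF4, XBP1, HSPA5 and DDIT3; of each further list, the called gene changed most each way is named. Alternatives were RLE and upper quartile scaling, no filter, a mean CPM of 5, DESeq2 1.42.0, limma-voom (limma 3.58.1), a replicate block, GC correction, the compared groups alone and each library left out.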

Additional observations from a re-analysis of the deposited data

How the results depend on the processing

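Of 41 members, those called in senescence numbered 9 to 11 higher and 13 to 15 lower over each library left out, and with the hairpin 9 to 13 higher and 12 to 14 lower. With TRi-1 (2 higher, 8 lower) they were 6 and 18 under GC correction, 16 lower at a mean CPM of 5, 18 lower with the compared groups alone, and 1 to 2 higher and 4 to 6 lower with a library left out. For the difference between hairpin and TRi-1 (11 higher, 7 lower), leaving out a library gave 9 to 12 higher and 5 to 13 lower. For DMSO against senescent control (7 higher, 4 lower) they were 4 higher with no filter, 11 higher and 11 lower under GC correction, 11 higher with the compared groups alone, and 5 to 6 higher and 3 to 5 lower with a library left out. Without the 3 libraries of lowest GC correlation, chosen after seeing the data, TRi-1 had 5 higher and 15 lower, the difference 11 lower and DMSO 8 lower. The cause was not tested.

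A log2 change of a member changed sign under at least 1 alternative in 44 cases over the 5 comparisons. In 36 neither value was called. The other 8 turned under GC correction. There 5 were called in the turned direction, in senescence DNAJB11 (0.15) and ATF6 (0.12), with the hairpin SEL1L (-0.12) and ATF5 (0.33), and in the difference P4HB (0.21). The calls of DDIT4 (0.16 with the hairpin, 0.30 in the difference) and TRIB3 (0.13 in the difference) were lost. No scaling moved the median of all genes by 0.1 on the log2 scale.

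The labels state no pairing behind the replicate numbers. Same-numbered deviations correlated at -0.279 to 0.321, which cannot exclude a pairing. With the replicate block the counts were 9 higher and 13 lower in senescence, 11 and 13 with the hairpin, 2 and 6 with TRi-1, 11 and 7 for the difference and 6 and 4 with DMSO. Members of low depth, such as SDF2L1 at 2.08 to 7.99 CPM, allow only large changes to be seen.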

Other observations

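GC content and library went together among the members. The 10 members of highest GC content (57.2% to 66.2%) were all lowest in shTXNRD1 replicate 3 among shTXNRD1 libraries and in growing replicate 1 among growing libraries. In DMSO replicate 1 9 of the 10 were lowest among DMSO libraries, and DDIT4 was highest there. In senescent control replicate 3 8 of the 10 were lowest. The 10 members of lowest GC content (37.0% to 43.9%) were all highest in the same shTXNRD1, growing and DMSO libraries, and 7 were highest in senescent control replicate 3. SHMT2 (58.8% GC) had 78.3, 61.3 and 46.1 CPM in shTXNRD1 replicates 1 to 3, 66.4, 84.97 and 78.3 CPM in DMSO replicates and 55.8, 78.5 and 88.7 CPM in growing replicates. ERO1B (37.0% GC) had 25.3, 27.04 and 30.5 CPM with shTXNRD1, 16.01, 14.1 and 14.6 CPM with DMSO and 10.6, 7.73 and 6.86 CPM in growing cells. The libraries and the number of members were chosen after values were seen, and no test was run.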
